A study of Mus musculus with 16 samples.

Results

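The 10 chemokine ligand genes Ccl1, Ccl3, Ccl5, Ccl6, Ccl17, Ccl22, Ccl24, Cxcl2, Cxcl3 and Cxcl10 were examined among the 22180 genes measured on 16 expression arrays of mouse group 2 innate lymphoid cells (ILC2s). The members were given as a list, and each was read from the probe set with 1 gene symbol that had the highest mean over all arrays. ILC2s are tissue-resident lymphocytes that respond to the epithelial alarmin IL-33 with type 2 cytokines such as Il13 and Il5. The lung ILC2s of naive C57BL/6J mice were on 2 arrays, and those of C57BL/6J mice given IL-33 intranasally on 3 arrays each for day 4 and week 2 and on 2 arrays for 4 months, with time counted from the initial treatment. The lung-draining mediastinal node (mLN) of IL-33 treated mice gave ILC2s for 3 further arrays at each of day 4 and week 2. The labels call the arrays of a group biological replicates. Mouse age and sex, the IL-33 dose, the sort markers and whether an array held RNA of 1 mouse or of a pool could not be read from the sources used here, and the labels of the mLN samples name no strain. No mLN array of a naive mouse was analysed here.

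Chemokines are small secreted proteins that bind G protein-coupled receptors and direct the migration of leukocytes. Their names follow the spacing of conserved cysteines (CC or CXC), and most bind receptors of the same class. Macrophages, dendritic cells and lymphocytes all make chemokines, so a sorted population with RNA from other cells can carry their chemokine transcripts. Lyz2, which encodes the lysozyme of macrophages and neutrophils, was therefore read on every array beside each ligand.

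All 12 ILC2 markers measured, Gata3, Il7r and Icos among them, lay above background on each of the 16 arrays. Background was the 95th percentile, on the same array, of 1373 olfactory and vomeronasal receptor genes. It lay between 4.12 and 4.39 on the log2 signal scale for the day 4 and week 2 arrays, and at 4.80 to 5.40 for the naive and 4-month arrays. The interquartile range of signal averaged 2.42 in naive lung and 2.26 at 4 months, against 2.88 to 2.99 in the other groups. In the comparisons that use the naive and 4-month groups, a fit with array weights, which gives noisy arrays less influence, is therefore given beside the members called. Over 11 T cell markers the mean log2 signal reached 6.60 and 6.43 in the naive samples, and elsewhere it spanned 5.08 to 5.46. The sorted samples are bulk RNA, so fewer cells of a type and less RNA per cell cannot be told apart.

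Lyz2 varied more between arrays of a group than between groups in the lung. Its log2 signal was 9.67 and 5.73 in naive lung, 9.46, 9.52 and 6.24 at day 4, 7.06, 5.66 and 9.76 at week 2, and 9.19 and 8.32 at 4 months. In the mLN it stayed between 4.66 and 5.24 on all 6 arrays. The widest gap in these values, 1.25 log2 units, left 6 lung arrays above it (8.32 to 9.76) and 10 arrays below it (7.06 or less). The arrays above were naive replicate 1, both 4-month arrays, day 4 lung replicates 1 and 2, and from week 2 the third lung replicate. S100a8, a calprotectin subunit abundant in neutrophils and monocytes, split the arrays in the same way, at 7.93 to 9.39 on these 6 arrays and at 4.77 or less on the others.

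The other macrophage markers separated those 6 arrays further. The mean log2 signal of the 16 macrophage markers measured beside Lyz2 was 5.76 and 5.79 on day 4 lung replicates 1 and 2, and the third week 2 lung array had 5.04. It was 4.34 on the third day 4 lung array, 3.99 and 3.79 on week 2 lung replicates 1 and 2, 4.39 and 3.90 in naive lung, and 4.47 and 4.16 at 4 months. On the mLN arrays it lay between 3.45 and 3.77. Counted with Lyz2, 11 and 14 of the 17 macrophage markers were above background on day 4 lung replicates 1 and 2, 10 on the third week 2 lung array, and between 2 and 7 on the remaining arrays. Chil3, a chitinase-like protein that alveolar macrophages make in quantity, read 11.39, 11.43 and 9.19 at day 4 in the lung and 5.88, 5.52 and 10.61 at week 2. Its values were 7.23 and 4.04 in naive lung and 6.71 and 5.24 at 4 months, so Lyz2 was high on several arrays where Chil3 was moderate. The dendritic cell markers varied less, with means of 4.38 to 4.44 over 9 markers on day 4 lung replicates 1 and 2 and 3.72 to 4.22 on the other arrays.

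The first and second day 4 lung replicates, together with the third week 2 lung replicate, are called the macrophage-high lung arrays, and results that rest on them are given with and without them. This choice was made with earlier results of these data known. It keeps naive replicate 1 and both 4-month arrays, and it leaves day 4 lung with 1 array, whose spread is then taken from the remaining groups.

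At day 4 after IL-33, Ccl17, Ccl24, Cxcl3 and Cxcl10 exceeded their naive lung signals, by log2 differences of 2.70 to 5.13. These 4 of 10 members passed limma's test at an adjusted p under 0.05 and none was lower, where 10.8% of all genes were called higher and 5.73% lower. Without the macrophage-high arrays 3 members were called higher (Ccl24, Cxcl3 and Cxcl10), and 2.44% of all genes were. The median difference was 1.81 over the 10 members and -0.06 over all genes. With array weights the same number, 4, was called, and Ccl24 (4.44, limma adjusted p = 0.000701), Cxcl3 (3.51, limma adjusted p = 6.15e-05) and Cxcl10 (2.59, limma adjusted p = 0.00468) were among them. Ccl17, Ccl24 and Cxcl3 were below background on both naive arrays and Cxcl10 on 1 of them, so these differences start from signals that cannot be told apart from background. By week 2, Ccl17, Ccl24 and Cxcl3 had fallen again, Ccl5 was lower as well, and the 4 ligands called higher at day 4 were not called against naive lung. At 4 months 1 member, Ccl5, was called against naive lung. In the mLN, Cxcl3 and Cxcl10 were above background on all 6 arrays, while Ccl3, Ccl6 and Ccl24 were below it on all 6.

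**Figure D1:**
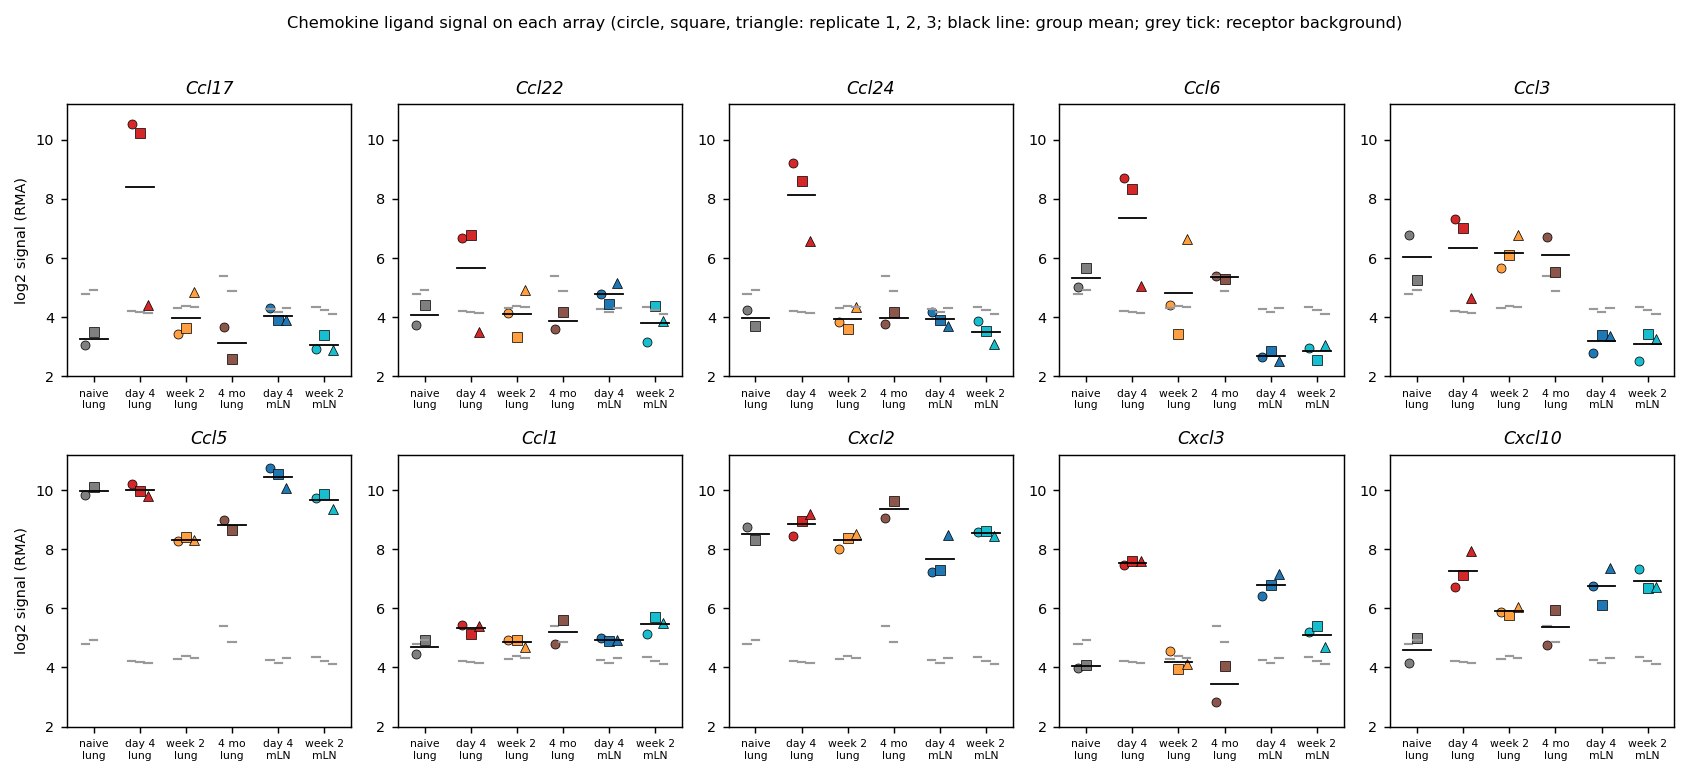
Log2 RMA signal (y axis) of each chemokine ligand on each of the 16 arrays, by group (x axis); circles, squares and triangles are replicates 1, 2 and 3, black lines are group means and grey ticks the receptor background of each array. At day 4 in the lung, Ccl17 read 10.55, 10.24 and 4.41 on the 3 arrays, while Cxcl3 read 7.45, 7.59 and 7.62.

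Ccl17 (TARC) and Ccl22 (MDC) both bind Ccr4, a receptor of Th2 cells, regulatory T cells and ILC2s. Their genes lie on chromosome 8 with Cx3cl1 between them, in the gene order of the RefSeq table. The promoters of both are shown because their transcripts were highest on the same 2 arrays. The windows end 50 bases past the gene start in the RefSeq table (build GRCm38.p6) and lie at chr8:94810203-94810502 on the plus strand for Ccl17 and chr8:94745434-94745733 on the plus strand for Ccl22. Capitals mark the STAT motif (TTC and GAA with any 4 bases between them), found 154 bases before the Ccl17 start. On either strand it occurs in 6.95% of 32851 promoters of this length and in 1 of the 8 members with a promoter in the table (Ccl5 and Ccl24 were not matched). Ccl22 has no match to the 5 motifs searched, the others being the kappaB consensus, the interferon response pair (GAAA, any 2 bases, GAAA), the AP-1 motif TGANTCA and TATAAA.
Ccl17: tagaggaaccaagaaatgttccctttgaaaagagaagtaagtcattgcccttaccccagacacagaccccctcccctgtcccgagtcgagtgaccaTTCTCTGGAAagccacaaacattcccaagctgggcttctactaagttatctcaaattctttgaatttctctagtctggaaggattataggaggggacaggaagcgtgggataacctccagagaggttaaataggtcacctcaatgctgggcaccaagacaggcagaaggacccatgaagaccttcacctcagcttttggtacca
Ccl22: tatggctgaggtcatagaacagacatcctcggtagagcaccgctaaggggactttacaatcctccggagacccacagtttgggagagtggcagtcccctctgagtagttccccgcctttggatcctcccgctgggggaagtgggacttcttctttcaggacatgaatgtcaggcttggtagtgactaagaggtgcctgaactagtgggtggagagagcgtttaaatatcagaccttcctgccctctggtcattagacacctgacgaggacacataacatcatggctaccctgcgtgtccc

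The log2 signal of Ccl17 was 10.55, 10.24 and 4.41 at day 4 in the lung. It was 3.05 and 3.48 in naive lung, 3.43, 3.64 and 4.85 at week 2, and 3.67 and 2.59 at 4 months. In the mLN it was 4.30, 3.90 and 3.92 at day 4 and 2.93, 3.38 and 2.89 at week 2. Only 5 of the 16 arrays were above background, and day 4 lung replicates 1 and 2 exceeded every other array by more than 5 log2 units. The third day 4 lung array, at 4.41, lay below week 2 lung replicate 3 and just above the highest day 4 mLN array.

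Ccl17 rose by 5.13 ± 1.16 (SE) against naive lung at day 4 (limma adjusted p = 0.00658) and fell by 4.43 ± 1.03 from day 4 to week 2 (limma adjusted p = 0.0357). Its SD was 3.46 in day 4 lung (n = 3) and 0.23 to 0.77 in the other groups. The fit pools the spread of all groups, so SE and p-values of Ccl17 differences with day 4 lung overstate their precision. In the fit that left out the macrophage-high lung arrays the day 4 rise was 1.14 and the change to week 2 was -0.87, and neither passed. The fall to week 2 also no longer passed without day 4 lung replicate 1 or 2 or any of the 3 week 2 lung arrays. With array weights the rise at day 4 still passed (limma adjusted p = 0.0239). With Chil3 as a covariate, chosen after seeing the data, the 2 differences were 2.55 (limma adjusted p = 0.343) and -2.72 (limma adjusted p = 0.488), and neither passed. Chil3 was 9.19 or more at day 4 and 7.23 or less in naive lung, so the first of them reaches beyond values the groups share. Ccl17 and the macrophage markers were high on the same day 4 arrays, and the markers' part in the result was not tested.

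Ccl22 read 6.68, 6.78 and 3.50 at day 4 in the lung, against 3.73 and 4.40 in naive lung. The week 2 lung arrays gave 4.13, 3.32 and 4.90, and the 4-month arrays 3.59 and 4.17. In the mLN its signal was 4.78, 4.43 and 5.17 at day 4 and 3.15, 4.37 and 3.88 at week 2. The same 2 day 4 lung arrays were highest, while the third was below background and below all 3 day 4 mLN arrays, each of which was above background. The difference from naive lung at day 4 was 1.59 ± 0.71 (SE) and did not pass limma's test (adjusted p = 0.138). Leaving out day 4 lung replicate 3 gave 2.67, which passed (limma adjusted p = 0.0013). It was -0.57 without the macrophage-high arrays.

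Ccl24 (eotaxin-2) binds Ccr3 and attracts eosinophils. Its log2 signal at day 4 in the lung was 9.22, 8.59 and 6.58, while the 13 other arrays lay between 3.09 and 4.34. All 3 day 4 lung arrays were thus above every other array, including replicate 3, on which Ccl17 and Ccl22 were low. Ccl24 was 4.22 on naive replicate 1 and 3.78 and 4.17 at 4 months, although Lyz2 was high there. On week 2 lung replicate 3, with Chil3 at 10.61, it was 4.34.

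Ccl24 rose by 4.18 ± 0.51 (SE) against naive lung at day 4 (limma adjusted p = 5.92e-05) and fell by 4.20 ± 0.46 to week 2 (limma adjusted p = 7.61e-05). The macrophage-high arrays left out, these differences were 2.63 and -2.86, with day 4 lung then replicate 3 alone. With Chil3 as a covariate, chosen after seeing the data, the day 4 rise was 2.97 (limma adjusted p = 0.0171). Chil3 did not overlap between day 4 and naive lung, so that fit reaches beyond values the groups share. Day 4 lung replicate 3 also carried Chil3 at 9.19, so Ccl24 and Chil3 were both raised on that array, and the marker's part in the Ccl24 signal was not tested beyond these fits.

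Ccl6, a CC chemokine of myeloid cells that binds Ccr1, had log2 signals of 8.72, 8.33 and 5.05 at day 4 in the lung and 5.0 and 5.66 in naive lung. It read 4.41, 3.42 and 6.65 at week 2 and 5.41 and 5.29 at 4 months. Week 2 lung replicate 2 was below its background of 4.39. Week 2 lung replicate 1 and 4-month replicate 1 were just above theirs, at 4.30 and 5.40, and the naive arrays above 4.80 and 4.91. The sizes of Ccl6 differences among naive, week 2 and 4-month lung therefore depend on the background signal. All 6 mLN arrays were below background, at 2.52 to 3.07. The high arrays within day 4 and week 2 were those with high Chil3, and the lung and mLN ranges did not overlap. Against naive lung the day 4 difference of 2.04 ± 0.85 (SE) did not pass limma's test (adjusted p = 0.112). Without day 4 lung replicate 3 it was 3.19 and passed (limma adjusted p = 0.00438), and without the macrophage-high arrays it was -0.28 (limma adjusted p = 0.755). The week 2 difference from naive lung without them was -1.41 and passed (limma adjusted p = 0.0321).

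Ccl3 (MIP-1alpha), a ligand of Ccr1, was detected in all lung groups. It read 6.78 and 5.27 in naive lung, 7.31, 7.03 and 4.64 at day 4, 5.66, 6.11 and 6.78 at week 2, and 6.70 and 5.54 at 4 months. Every one of the 10 lung arrays was above background, whereas the 6 mLN arrays lay below it, at 2.51 to 3.44. The 4 lung groups overlapped in range, and the lung differences against naive were between 0.09 and 0.30 with none passing. On the 6 arrays with Lyz2 above the gap Ccl3 lay between 5.54 and 7.31, and on the 4 other lung arrays between 4.64 and 6.11.

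Ccl5 (RANTES), a ligand of Ccr1 and Ccr3 made by T cells, NK cells and other leukocytes, followed another course. Its log2 signal was 9.85 and 10.10 in naive lung and 10.22, 9.98 and 9.81 at day 4. It was 8.28, 8.40 and 8.31 at week 2 and 9.0 and 8.65 at 4 months. In the mLN it was 10.74, 10.53 and 10.07 at day 4 and 9.74, 9.86 and 9.38 at week 2. The week 2 and 4-month lung arrays were lower than every other array, and these 2 groups did not overlap with each other.

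Against naive lung, Ccl5 was the 1 member of 10 called at week 2, where it fell by 1.64 ± 0.22 (SE; limma adjusted p = 0.000402) and 2.87% of all genes were called lower and 6.75% higher. With array weights that difference was -1.65 (limma adjusted p = 0.00442). It also fell by 1.68 ± 0.20 from day 4 to week 2 (limma adjusted p = 0.000178). Once the macrophage-high arrays were left out, the difference from naive lung was -1.63 (limma adjusted p = 0.00682), while that from day 4, at -1.47, did not pass (limma adjusted p = 0.104). At 4 months it was again the 1 member called, at -1.15 ± 0.24 (limma adjusted p = 0.0229), against 1.25% of all genes called lower and 0.717% higher. That call was lost with array weights (limma adjusted p = 0.514) and without the macrophage-high arrays (the difference again -1.15). It was also lost without naive replicate 2 or without 4-month replicate 2, each of which leaves its group a single array. Without 4-month replicate 2 the difference of Cxcl3 was -1.20, and Cxcl3 was below background on the 4-month array left and on both naive arrays. T cell markers were also higher on the naive arrays (means of 6.60 and 6.43) than at week 2 (5.09 to 5.24) or 4 months (5.30 and 5.22), and their part in the result was not tested. At day 4, with T cell markers at 5.16 to 5.35, Ccl5 was at 9.81 to 10.22. The mean of 7 NK cell markers was 5.29 and 5.23 in naive lung, 3.99 to 4.31 at day 4, 4.05 to 4.44 at week 2, and 5.11 and 4.59 at 4 months.

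Ccl1, the ligand of Ccr8, varied little. Its log2 signal ranged from 4.46 on naive replicate 1 to 5.72 on week 2 mLN replicate 2, and 14 of 16 arrays were above background. Each group overlapped with its neighbour in the order of means, from week 2 mLN (5.46 ± 0.30, SD, n = 3) to naive lung (4.69 ± 0.32, SD, n = 2). No comparison of Ccl1 passed in the fit with equal weights. The difference nearest to the threshold was that of day 4 against naive lung, at 0.63 ± 0.24 (SE; limma adjusted p = 0.0791), and with Lyz2 as a covariate it was 0.70 and passed (limma adjusted p = 0.0455).

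The CXC ligands follow. Cxcl2 (MIP-2) and Cxcl3 bind Cxcr2 and attract neutrophils, and Cxcl10 (IP-10), an interferon-induced chemokine, binds Cxcr3 on Th1 and NK cells. Their promoters are shown because Cxcl3 and Cxcl10 rose on all 3 day 4 lung arrays and Cxcl2, a close relative of Cxcl3 on the same chromosome, did not. The windows, again from RefSeq on GRCm38.p6, are chr5:90903649-90903948 on the plus strand for Cxcl2, chr5:90785851-90786150 on the plus strand for Cxcl3 and chr5:92348840-92349139 on the minus strand for Cxcl10. Capitals mark matches to the kappaB consensus in all of them, to TATAAA in Cxcl3, and to the GAAA pair and TGANTCA in Cxcl10.
Cxcl2: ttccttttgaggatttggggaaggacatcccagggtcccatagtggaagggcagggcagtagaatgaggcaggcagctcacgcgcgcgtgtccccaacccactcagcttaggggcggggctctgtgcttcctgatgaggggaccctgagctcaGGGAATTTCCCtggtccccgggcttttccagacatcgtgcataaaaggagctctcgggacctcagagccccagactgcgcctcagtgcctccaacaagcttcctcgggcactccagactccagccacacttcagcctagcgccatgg
Cxcl3: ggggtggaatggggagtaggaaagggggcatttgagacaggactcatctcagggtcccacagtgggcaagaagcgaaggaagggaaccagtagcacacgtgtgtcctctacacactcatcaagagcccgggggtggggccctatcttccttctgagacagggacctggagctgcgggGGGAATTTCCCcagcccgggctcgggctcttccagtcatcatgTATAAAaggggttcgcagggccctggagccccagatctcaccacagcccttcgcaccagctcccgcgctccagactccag
Cxcl10: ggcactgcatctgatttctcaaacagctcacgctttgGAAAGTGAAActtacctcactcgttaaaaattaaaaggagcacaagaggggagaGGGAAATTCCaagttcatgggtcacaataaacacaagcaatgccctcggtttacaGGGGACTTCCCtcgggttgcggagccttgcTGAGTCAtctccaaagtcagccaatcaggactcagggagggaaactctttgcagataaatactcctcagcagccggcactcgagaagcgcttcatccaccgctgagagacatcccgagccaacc

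The same 10 bases, GGGAATTTCC, begin 97 bases before the Cxcl2 start and 73 bases before the Cxcl3 start, and the match on the opposite strand overlaps them by all but 1 base. In Cxcl10, kappaB matches begin at 159 and 104 bases before the start, the second of them again overlapping a match shifted by 1 base. The GAAA pair begins at 213 and the TGANTCA match at 74 bases before the start. The kappaB consensus, searched on both strands, is found in 4 of the 8 members with a promoter (Ccl1, Cxcl2, Cxcl3 and Cxcl10) and in 8.46% of all 32851 promoters. The GAAA pair, TGANTCA and TATAAA each occur in 1 of the 8 members and in 3.44%, 7.81% and 13.6% of all promoters. These are matches of letters in the window and say nothing on binding.

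Among the 4 ligands that rose, Cxcl3 varied least between the day 4 lung arrays (SD 0.09, n = 3). Its log2 signal was 3.99 and 4.09 in naive lung and 7.45, 7.59 and 7.62 at day 4. It was 4.54, 3.94 and 4.11 at week 2 and 2.84 and 4.07 at 4 months. In the mLN it read 6.40, 6.80 and 7.18 at day 4 and 5.21, 5.41 and 4.69 at week 2. The ranges of day 4 lung, day 4 mLN, week 2 mLN and week 2 lung followed each other without overlap, and all 6 mLN arrays were above background. Day 4 lung replicate 3, with Lyz2 at 6.24 and Chil3 at 9.19, had the highest value of all 16 arrays.

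Cxcl3 rose by 3.51 ± 0.31 (SE) at day 4 against naive lung (limma adjusted p = 4.27e-06) and fell by 3.35 ± 0.28 by week 2 (limma adjusted p = 8.48e-06). Both naive arrays, 2 of 3 week 2 lung arrays and both 4-month arrays were below background, so the sizes of these differences depend on the background signal. The same differences without the macrophage-high arrays were 3.57 and -3.37, with day 4 lung then replicate 3 alone and so without a spread of its own. In the mLN it was the 1 member of 10 called between the times, where 1.18% of all genes were called lower and 0.528% higher. There it fell by 1.69 ± 0.28 from day 4 to week 2 (limma adjusted p = 0.00214). Without day 4 mLN replicate 3, Ccl5 (-0.98, limma adjusted p = 0.0156) and Cxcl2 (1.29, limma adjusted p = 0.0092) were also called. The fall in the lung exceeded that in the mLN by 1.67 ± 0.40, which did not pass as an interaction (limma adjusted p = 0.13), although it passed with array weights (1.79, limma adjusted p = 0.0126). Whether probes of the Cxcl2 and Cxcl3 sets also take up the other transcript was not tested.

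The signal of Cxcl10 was 6.73, 7.14 and 7.95 at day 4 in the lung, against 4.15 and 5.01 in naive lung. At week 2 it was 5.87, 5.78 and 6.05, and at 4 months 4.76 and 5.95. The mLN arrays gave 6.74, 6.12 and 7.36 at day 4 and 7.35, 6.69 and 6.72 at week 2. Day 4 lung and both mLN groups overlapped and lay above the week 2, 4-month and naive lung arrays. The highest value was again on day 4 lung replicate 3.

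Cxcl10 rose by 2.70 ± 0.41 (SE) at day 4 against naive lung (limma adjusted p = 0.000428). Without the macrophage-high arrays, with day 4 lung then replicate 3 alone, the difference was 3.37. At week 2 the difference from naive lung was 1.32 ± 0.41 and missed the threshold (limma adjusted p = 0.0531). It passed with Lyz2 as a covariate, at 1.29 (limma adjusted p = 0.0469), and without naive replicate 2, at 1.75 (limma adjusted p = 0.0377). The difference between week 2 and day 4 in the lung was -1.38 ± 0.37 (limma adjusted p = 0.0773), which passed with array weights (limma adjusted p = 0.0117). In the mLN the change between the times was 0.18 ± 0.37 (limma adjusted p = 0.978).

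Cxcl2 was above background on all 16 arrays. Its log2 signal was 8.75 and 8.32 in naive lung, 8.44, 8.95 and 9.19 at day 4, 8.03, 8.39 and 8.52 at week 2, and 9.06 and 9.65 at 4 months. In the mLN it was 7.23, 7.29 and 8.49 at day 4 and 8.58, 8.61 and 8.47 at week 2. The 2 lowest values were day 4 mLN replicates 1 and 2, the 2 highest were day 4 lung replicate 3 and 4-month replicate 2, and each group overlapped with the next in the order of means. The rise from week 2 to 4 months, 1.04 ± 0.33 (SE), passed limma's test (adjusted p = 0.0403) as the 1 member of 10, where 4.85% of all genes were called higher and 11.5% lower. It did not pass with array weights (limma adjusted p = 0.139), with Lyz2 as a covariate (1.03, limma adjusted p = 0.0594), with array medians centred (limma adjusted p = 0.0551) or after leaving out any single array of the 2 groups (limma adjusted p from 0.0609 to 0.194). Without the macrophage-high arrays Cxcl2 was at 1.15 and did not pass (limma adjusted p = 0.0778), and Ccl6, at 1.43, was called in its place (limma adjusted p = 0.0277). Without 4-month replicate 2, which leaves a single 4-month array, the difference of Cxcl3 between these groups was -1.36. On that array Cxcl3 was below background, as on week 2 lung replicates 2 and 3.

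Between week 2 and day 4 in the lung, 4 of 10 members fell (Ccl5, Ccl17, Ccl24 and Cxcl3) and none rose, where 1.39% of all genes were called lower and 0.419% higher. The median difference was -1.61 over the members and 0.01 over all genes. Without the macrophage-high arrays 2 members fell, Ccl24 and Cxcl3, and 0.189% of all genes were called lower. With array weights 7 members were called, with Ccl6, Ccl22 and Cxcl10 added to the 4. Without day 4 lung replicate 3, Ccl6 (-3.70, limma adjusted p = 0.00242) and Ccl22 (-2.62, limma adjusted p = 0.00216) also fell, and without week 2 lung replicate 3 Ccl6 did (-3.45, limma adjusted p = 0.0246).

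The comparison of mLN with lung ILC2s asks how cells of the draining node differ from those of the tissue. At day 4, 5 of 10 members were lower in the mLN (Ccl3, Ccl6, Ccl17, Ccl24 and Cxcl2) and none was higher, where 1.35% of all genes were called lower and 0.978% higher. Ccl6 was lower by a log2 difference of -4.69 ± 0.76 (SE; limma adjusted p = 0.0019), and Ccl24 by one of -4.20 ± 0.46 (limma adjusted p = 5.7e-05). The difference of Ccl17 was -4.36 ± 1.03 (limma adjusted p = 0.0314), that of Ccl3 was -3.14 ± 0.56 (limma adjusted p = 0.00438) and that of Cxcl2 was -1.19 ± 0.29 (limma adjusted p = 0.0388). Cxcl3, Cxcl10 and Ccl22 differed by -0.76, -0.53 and -0.86 and did not pass. The direction of Ccl22 turned to 1.30 without the macrophage-high arrays (limma adjusted p = 0.38), and without day 4 lung replicate 3 it was -1.94 and passed (limma adjusted p = 0.0165).

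Of those 5 day 4 calls, 3 were lost without the macrophage-high arrays, in a fit with fewer arrays. The difference of Ccl17 was then -0.37 and that of Ccl3 was -1.46, while that of Cxcl2, at -1.52, was no smaller than with all arrays. The remaining 2, Ccl6 (-2.37 ± 0.37, limma adjusted p = 0.00783) and Ccl24 (-2.65 ± 0.33, limma adjusted p = 0.00237) were again lower in the mLN, 2 of 10 members against 0.591% of all genes. With Lyz2 as a covariate only Ccl24 passed (-3.14, limma adjusted p = 0.00159), and with Chil3 as a covariate Ccl24 did not pass either (-2.64, limma adjusted p = 0.266). Lyz2 was 6.24 or more in day 4 lung and 5.24 or less in day 4 mLN. Chil3 was 9.19 or more and 4.44 or less. Neither marker overlapped, so both fits reach beyond values the groups share and cannot separate tissue from marker. The Ccl17 call was lost on leaving out any array of the 2 groups other than day 4 lung replicate 3 (limma adjusted p from 0.0879 to 0.188). The Cxcl2 call was lost without day 4 lung replicate 2 or 3 or day 4 mLN replicate 1 or 2 (limma adjusted p from 0.143 to 0.226). Of the 17 macrophage markers, 5 were lower in the mLN at day 4 and none was higher, and their part in the result was not tested.

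At week 2, Ccl3 was lower in the mLN than in the lung by a log2 difference of -3.11 ± 0.56 (SE; limma adjusted p = 0.0107), and Ccl5 was higher by 1.33 ± 0.20 (limma adjusted p = 0.00206). These were 1 member lower and 1 higher, where 0.446% of all genes were called lower and 0.334% higher. The differences without the macrophage-high arrays were -2.81 ± 0.44 (limma adjusted p = 0.013) and 1.32 ± 0.24 (limma adjusted p = 0.032), both past the threshold. The Ccl3 call was lost with Lyz2 as a covariate (-2.04, limma adjusted p = 0.0536) and with Chil3 as a covariate (-1.79, limma adjusted p = 0.319). It was also lost without week 2 lung replicate 3 (limma adjusted p = 0.066) or week 2 mLN replicate 1 (limma adjusted p = 0.0749). Neither Lyz2 nor Chil3 overlapped between week 2 lung and mLN, so the covariate fits cannot separate tissue from marker.

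The change from day 4 to week 2 differed between the tissues for 1 member of 10, Ccl24, with 0.0676% of all genes called in the same direction and 0.113% in the opposite one. Ccl24 changed by -0.43 in the mLN and by -4.20 in the lung, an interaction of 3.77 ± 0.64 (SE; limma adjusted p = 0.0217). All 6 mLN arrays of Ccl24 lay at 4.18 or less, below background. Leaving out the macrophage-high arrays gave an interaction of 2.43 ± 0.43, which did not pass (limma adjusted p = 0.0647), nor did it with Chil3 as a covariate (3.07, limma adjusted p = 0.0913). The call was also lost on leaving out any 1 of 7 of the 12 arrays, at values of 3.54 to 3.76 (limma adjusted p from 0.0544 to 0.0774). They were day 4 lung replicate 2, week 2 lung replicates 1 and 2, day 4 mLN replicates 2 and 3, and week 2 mLN replicates 1 and 2. The interaction of Ccl17 passed without day 4 lung replicate 3 (5.45, limma adjusted p = 7.01e-05) and that of Cxcl2 without day 4 mLN replicate 3 (1.84, limma adjusted p = 0.0415).

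**Figure D2:**
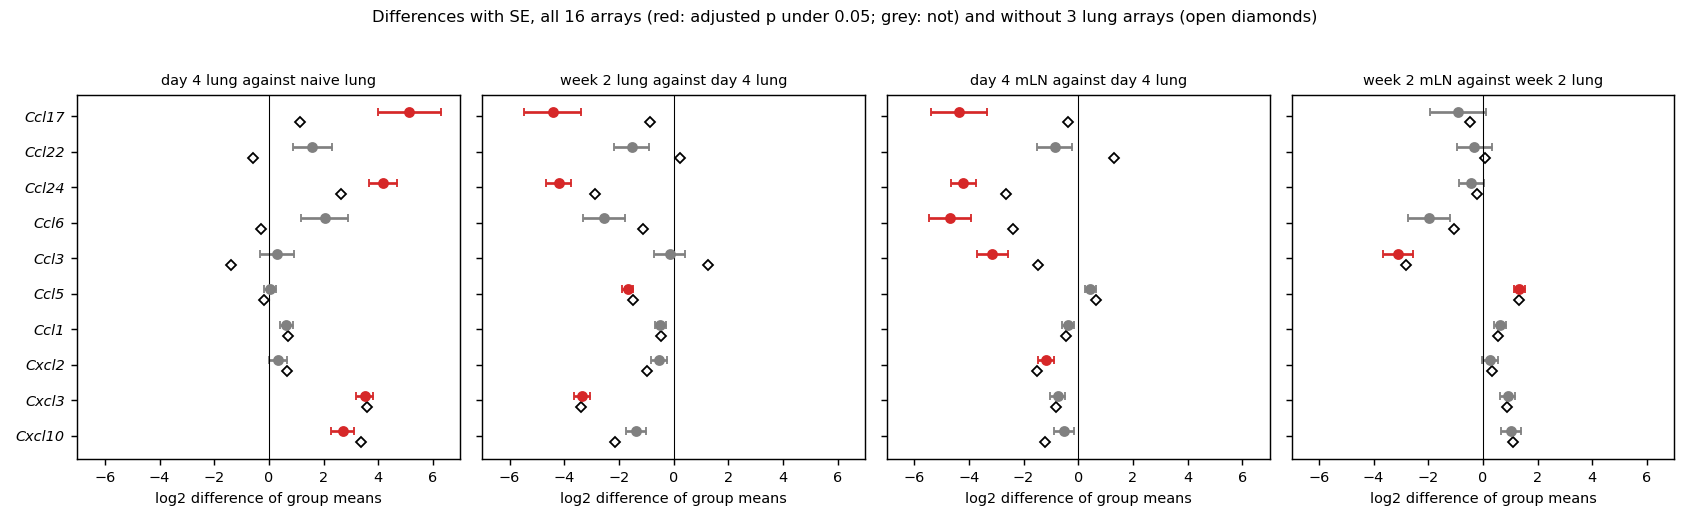
Log2 difference of group means (x axis) for each ligand (y axis) in 4 comparisons; filled circles with SE bars are fits to all 16 arrays, red where limma's adjusted p was under 0.05 and grey where not, and open diamonds are fits without the 3 macrophage-high lung arrays. In day 4 against naive lung, Ccl17 went from 5.13 to 1.14 without those arrays, while Cxcl3 stayed at 3.51 and 3.57.

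The relation to Lyz2 was measured as a slope within groups, the log2 change of a gene per log2 unit of Lyz2 in a model that also held the 6 group means. The slopes of Ccl17, Ccl6, Ccl3, Ccl22 and Ccl24 were positive, at 0.64 ± 0.21, 0.54 ± 0.14, 0.43 ± 0.10, 0.36 ± 0.13 and 0.31 ± 0.09 (SE). Those of Ccl5, Cxcl2 and Cxcl3 were 0.00 ± 0.05, 0.01 ± 0.07 and -0.04 ± 0.07, and those of Ccl1 and Cxcl10 were -0.09 ± 0.05 and -0.14 ± 0.09. By limma's adjusted p, 0 of the 10 slopes passed, with a lowest value of 0.12 for Ccl3, where 0.189% of all genes passed. These 5 members with positive slopes of 0.31 or more had an unadjusted p under 0.05. Slopes of either sign met that threshold for 5 of the 26 other chemokine ligands, 11 of 16 macrophage markers, 6 of 10 neutrophil markers and 2 of 12 ILC2 markers. By adjusted p, 2 macrophage and 2 neutrophil markers passed, among them Chil3 (0.97, limma adjusted p = 0.000147) and S100a8 (1.12, limma adjusted p = 5.38e-05). The slope on Lyz2 therefore does not single out macrophage transcripts. The share of all genes at the unadjusted threshold was not counted. With 1 naive array left out, whichever it was, the slope of Ccl6 was 0.88 and passed (limma adjusted p = 5.82e-05), and without week 2 lung replicate 2 that of Ccl3 was 0.53 and passed (limma adjusted p = 0.0293).

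With the mean of the 16 other macrophage markers in place of Lyz2, the slopes of Ccl17 (2.71 ± 0.45), Ccl6 (2.11 ± 0.29), Ccl22 (1.58 ± 0.31) and Ccl3 (1.43 ± 0.26) passed, with limma adjusted p values of 0.00857, 0.00135, 0.0416 and 0.0243. That of Ccl24 was 1.11 ± 0.23 (limma adjusted p = 0.0536), and 0.298% of all genes passed. Without the macrophage-high arrays the slopes on Lyz2 were -0.05 for Ccl17, -0.06 for Ccl6, -0.11 for Ccl22, 0.12 for Ccl24 and 0.30 for Ccl3. Between the naive arrays Lyz2 differed widely, at 9.67 and 5.73, while Ccl17 was 3.05 and 3.48, both below background, and Ccl6 was 5.0 and 5.66. Ccl3, at 6.78 and 5.27, was higher on the array with more Lyz2, as was Ccl24, at 4.22 and 3.69 and below background on both.

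**Figure D3:**
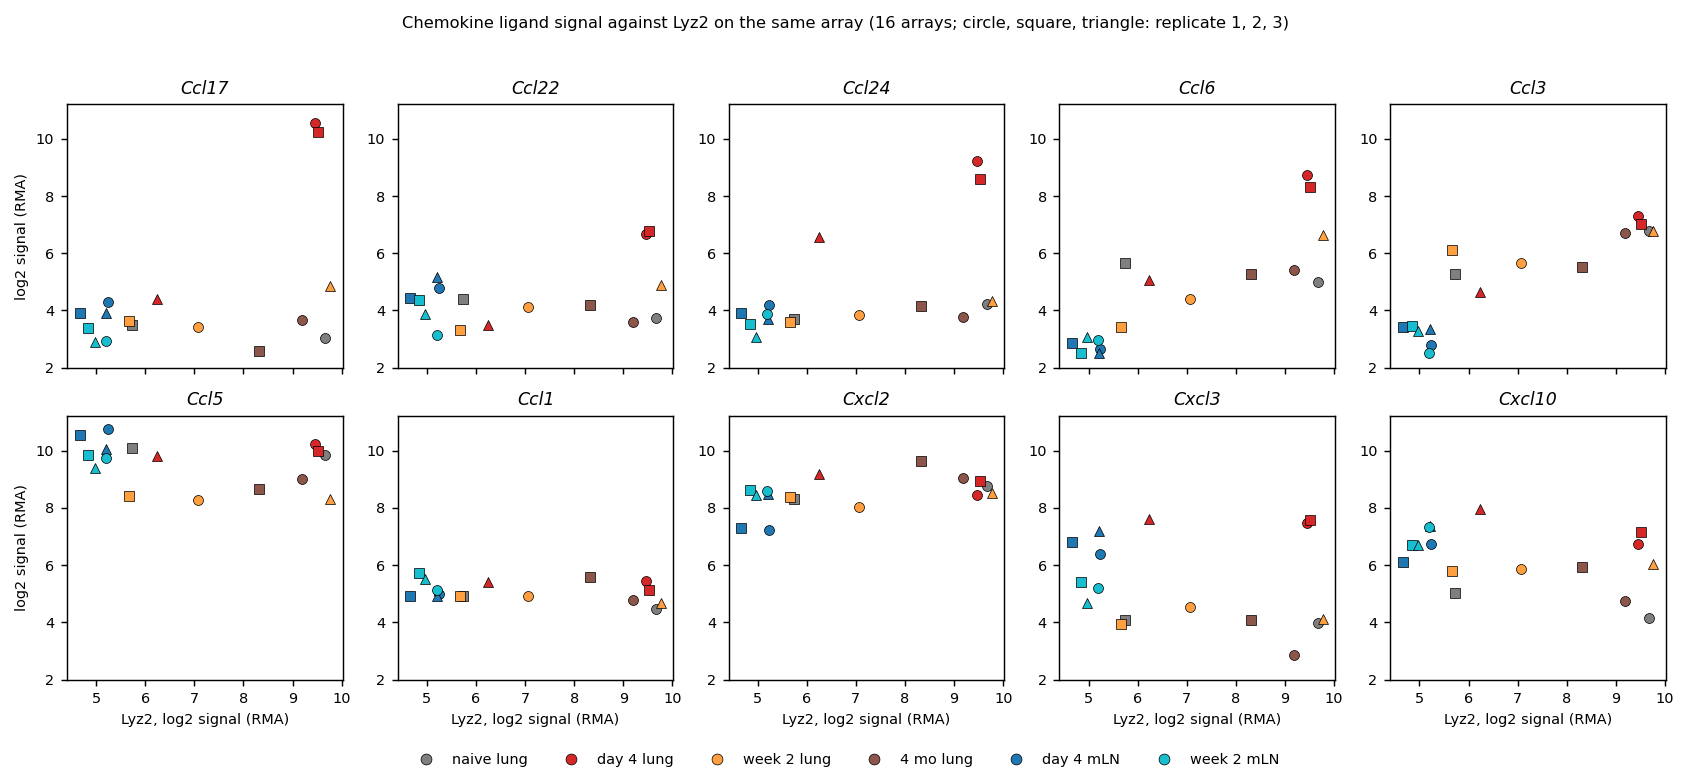
Log2 RMA signal of each ligand (y axis) against that of Lyz2 (x axis) on the same array, 16 arrays coloured by group, with circles, squares and triangles for replicates 1, 2 and 3. Ccl17 was above 10 on day 4 lung replicates 1 and 2 alone, and between 2.59 and 4.85 on the 4 other arrays with Lyz2 of 8.32 or more.

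**Figure D4:**
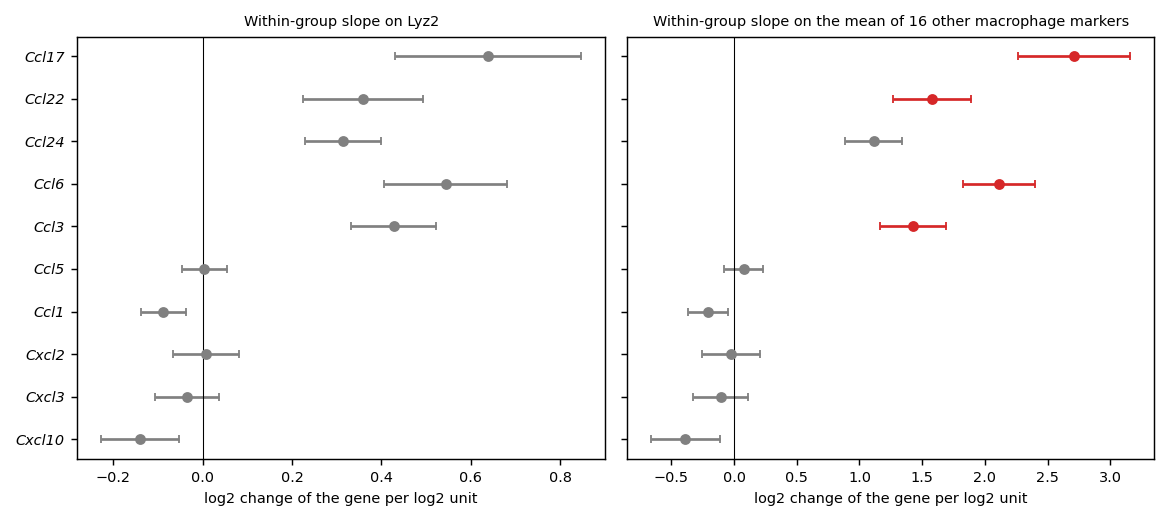
Within-group slope (x axis, log2 change of the gene per log2 unit of the marker) with SE bars for each ligand (y axis), on Lyz2 at the left and on the mean of 16 other macrophage markers at the right, red where limma's adjusted p was under 0.05. Ccl17, Ccl22, Ccl6 and Ccl3 passed at the right and none at the left, and the slopes of Ccl5, Cxcl2 and Cxcl3 lay within 1 SE of 0 in both.

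The genes most like each ligand over the 16 arrays were taken as the 3 with the highest Pearson r, given as a description since the arrays share groups and macrophage transcripts. Ccl17 and Ccl24 shared Fbp1 (r = 0.962 and 0.957) and Rnase2a (r = 0.957 and 0.971) among their nearest genes. Ccl22 was nearest to Ccl17 (r = 0.875), and Ccl6 to Myof (r = 0.94). Ccl3 was nearest to Dusp3 (r = 0.915) and Fcer1g (r = 0.907), the common gamma chain of Fc receptors. Cxcl3 was nearest to the interferon-induced genes Oas1b (r = 0.949) and Cmpk2 (r = 0.949). Cxcl10 was nearest to Smarce1 (r = 0.953), Peli1 (r = 0.931) and Trim30d (r = 0.929). Ccl5 was nearest to Ms4a6b (r = 0.854) and Ccl1 to Bola1 (r = 0.845). Cxcl2 was nearest to Ddo (r = 0.899) and then to Olfr1056 (r = 0.887), an olfactory receptor gene of the class used for background.

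Among the 26 other chemokine ligands measured, 1 was higher and 2 were lower at day 4 than in naive lung, no larger a part than the 10.8% higher and close to the 5.73% lower of all genes. Ccl9, a CC ligand of Ccr1 beside Ccl6 on chromosome 11, rose by 3.41 ± 0.85 (SE; limma adjusted p = 0.012). Its signals of 9.45, 9.09 and 5.84 at day 4 were highest on the macrophage-high arrays. Ccl4 (MIP-1beta), beside Ccl3 on the chromosome, fell by 1.69 ± 0.39 (limma adjusted p = 0.00775), and Cxcl13, the B cell attractant, fell by 1.00 ± 0.18 (limma adjusted p = 0.00145). Cxcl13 had a naive mean of 4.78 and a day 4 mean of 3.77, each under the lowest background of its group (4.80 and 4.16). At week 2, Ccl4 (-1.55 ± 0.39) and Cxcl13 (-0.93 ± 0.18) were lower than in naive lung, with limma adjusted p values of 0.0204 and 0.0048. Xcl1 (lymphotactin) fell by 1.47 ± 0.36 from day 4 to week 2 in the lung (limma adjusted p = 0.0487). Cxcl13 rose from week 2 to 4 months by 0.76 ± 0.18 (limma adjusted p = 0.0117). The week 2 mean of Cxcl13, 3.84, was also under background, which was 4.30 or more on those arrays. Background was higher on the naive and 4-month arrays, and its part in these Cxcl13 differences was not tested. In the mLN at day 4, Ccl9 was lower than in the lung (-3.62 ± 0.76, limma adjusted p = 0.0144), and no other ligand of the 26 was called in the remaining comparisons.

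Of the 23 chemokine receptors measured, 3 rose and 3 fell at day 4 against naive lung, where 10.8% of all genes rose and 5.73% fell. A count of 3 of 23 risen is near the share of all genes, and 3 of 23 fallen is above it. Of the fallen receptors, Ccr10 (naive mean 3.97) and Cxcr3 (naive mean 4.62) were already below background in naive lung. Ccr4, the receptor of Ccl17 and Ccl22, rose by 2.22 ± 0.17 (SE; limma adjusted p = 1.3e-06) and fell by 1.10 ± 0.16 to week 2 (limma adjusted p = 0.000825). From week 2 to 4 months it fell by 1.17 ± 0.17 (limma adjusted p = 0.000928). Ccr1, a receptor of Ccl3, Ccl5 and Ccl6, rose by 1.21 ± 0.28 at day 4 (limma adjusted p = 0.00832), and Ccr2 fell by 0.95 ± 0.17 (limma adjusted p = 0.00147). The naive mean of Ccr1, 3.47, lay below background, which was 4.80 or more on those arrays. Its slope on Lyz2 was 0.14 ± 0.05 (limma adjusted p = 0.613), and the part of macrophage RNA in its rise was not tested. Ccr3, the receptor of Ccl24, was higher in mLN than in lung ILC2s by 2.42 ± 0.36 at day 4 (limma adjusted p = 0.000845) and by 2.53 ± 0.36 at week 2 (limma adjusted p = 0.0015). Ccr8, the receptor of Ccl1, was lower in the mLN at both times, at -1.57 ± 0.29 (limma adjusted p = 0.00532) and -1.39 ± 0.29 (limma adjusted p = 0.0292).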

How the data were processed

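The authors' deposited values are log2 signals of probe sets, made with Affymetrix Expression Console and RMA, as the submitters' processing notes name them. No version or build could be read from the sources used here. The labels' protocols name Trizol extraction and a Nugen Encore biotin kit. RMA includes quantile normalization, which hides changes in total RNA. Of 41345 probe sets, 23521 had 1 gene symbol, 1814 several and 16010 none. The highest-mean probe set stood for each gene, which left 22180 genes.

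Group means of all 16 arrays were fitted with limma 3.58.1 in R 4.3.3, with 10 residual and 6.52 prior degrees of freedom. Tests are two-sided, and a call is a Benjamini-Hochberg adjusted p under 0.05 across the whole table. The number of arrays limits the precision, and p-values measure the spread between arrays labelled as replicates. The fit was tested on simulated data. Slopes came from the same model with Lyz2 or the marker mean added.

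The members, marker lists and alternatives were chosen with earlier results of these data known, and Chil3 as a covariate was added after seeing the data. Named genes are the 10 members, Lyz2, some of the called genes of the other ligand and receptor lists, and genes from the 3 most like each member. Called receptors not described above include Cxcr6 at day 4 and Ccr4, Ccr7 and Cxcr6 at week 2, all against naive lung. S100a8, Chil3, Cx3cl1 and Cxcl1 were named after their values were seen. Promoters came from RefSeq (GRCm38.p6), where 8 of 10 members matched. matplotlib 3.10.9 under Python 3.11.15 drew the figures.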

Additional observations from a re-analysis of the deposited data

Results flagged for a closer look

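The change of Ccl24 from day 4 to week 2 differed between the tissues. It was -0.43 in the mLN and -4.20 in the lung, and the interaction of 3.77 ± 0.64 (SE) passed limma's test (adjusted p = 0.0217). Ccl24 had read 9.22, 8.59 and 6.58 on the day 4 lung arrays and 4.18 or less on every mLN array, all below background. Without the 3 macrophage-high lung arrays the interaction was 2.43, with a limma adjusted p of 0.0647. The call was lost without 1 array in 7 of 12 cases (limma adjusted p from 0.0544 to 0.0774): day 4 lung replicate 2, week 2 lung replicates 1 and 2, day 4 mLN replicates 2 and 3, and week 2 mLN replicates 1 and 2. With Chil3 as a covariate it was 3.07 (limma adjusted p = 0.0913).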

How the results depend on the processing

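No difference called changed sign under any alternative. For day 4 against naive lung, 3 to 5 members were called under every setting that kept all arrays or left out the macrophage-high ones, against 4 with the fit reported, and 4 to 6 when 1 array was left out. Requiring a log2 change of at least 1, and averaging the probe sets of each gene, changed no count of members by over 1.5 times. For week 2 against naive lung, 1 member became 2 with array medians centred, without dim genes, with Lyz2 or Chil3 as a covariate and without the macrophage-high arrays, and 1 to 2 with 1 array left out. For 4 months against naive lung, 1 became 0 with array weights and without the macrophage-high arrays (0 to 1 with 1 array left out). For week 2 against day 4 lung, 4 became 7 with array weights and 2 without the macrophage-high arrays (3 to 6). For 4 months against week 2, 1 became 0 with medians centred, array weights or Lyz2 as a covariate, and 2 with quantile normalization repeated (0 to 1). For week 2 against day 4 mLN, 1 became 2 with quantile normalization repeated, without dim genes and with array weights (1 to 3). For day 4 mLN against lung, 5 became 1 with Lyz2 as a covariate, 0 with Chil3 and 2 without the macrophage-high arrays (3 to 5). At week 2 that comparison went from 2 to 1 with Lyz2 or Chil3 as a covariate (1 to 2). Neither marker overlapped between mLN and lung arrays of one time, so these covariate fits reach beyond values the tissues share. The interaction went from 1 to 2 with array weights and to 0 without the macrophage-high arrays or with Chil3 as a covariate (0 to 2). Slopes passing went from 0 to 1 with array weights and to 4 with the mean of the other markers (0 to 1). The cause was not tested where an array was not itself left out.

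The replicate numbers did not meet the criterion for pairing, a correlation above 0.1 in every pair. Over 36 pairs of arrays with the same number in different groups, the correlation of deviations from the group means ran from -0.104 to 0.184, with 2 above 0.1. The 6 pairs of lung and mLN arrays of one time were all positive, at 0.012 to 0.184, with 1 above 0.1. Of the 3 lung and 3 mLN arrays, 2 and 2 correlated best with their own number at day 4 and 2 and 3 at week 2, a hint from the data and not from the design. With the replicate block, members called in week 2 against day 4 mLN went from 1 to 2, and the genes called in day 4 against naive lung from 3677 to 3562. With the block within each time point the interaction gave 2 members and the slope 1, and the genes called in mLN against lung went from 517 to 747 at day 4 and from 173 to 338 at week 2.

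Array weights moved the number of genes called from 3677 to 1627 for day 4 against naive lung, from 2134 to 728 at week 2, from 436 to 4 at 4 months and from 401 to 1409 for week 2 against day 4 lung. Signals near background can understate differences, and 4 to 10 arrays were above background for Ccl17, Ccl22, Ccl24, Ccl6, Ccl3 and Cxcl3. Background was also higher on the naive and 4-month arrays (4.80 to 5.40) than on the others (4.12 to 4.39). Differences between signals near background can follow that level in comparisons with those groups, which was not tested.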

Other observations

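Genes that neighbour the members on the chromosome, chosen by position after values were seen, did not all share their course. Cx3cl1, the membrane-bound chemokine fractalkine between Ccl22 and Ccl17, read 4.97, 4.93 and 5.91 at day 4 in the lung and 4.59 and 5.22 in naive lung, and its difference of 0.37 ± 0.28 (SE) did not pass limma's test (adjusted p = 0.391). Its highest signal was on day 4 lung replicate 3, where Ccl17 and Ccl22 were low. Ccl4, beside Ccl3, was 7.71 and 6.37 in naive lung and 5.64, 5.71 and 4.70 at day 4, so Ccl4 was lower at day 4 on all 3 arrays while Ccl3 overlapped between the groups. In the mLN, Ccl4 was at 3.98 to 4.80 and Ccl3 at 2.51 to 3.44. Cxcl1, between Cxcl3 and Cxcl2, was below background on both naive arrays and on day 4 lung replicates 1 and 2, and read 4.75 on replicate 3.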
